A study of Mus musculus with 7 samples.

Results

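The genes Nodal, Gdf3, Tdgf1, Lefty1, Lefty2, Smad7 and Skil encode a signalling protein, its co-factors and its inhibitors in mouse embryonic stem cells (ESCs). They were taken by name for their place in the pathway, by a rule that holds no measured value, although earlier results of these data were known. They are 7 of 31498 genes with at least 200 exonic bases of their own in GENCODE M1, and all 7 are among the 13825 genes whose level averaged at least 1 FPKM over 4 RNA-seq libraries. FPKM is the number of alignments on a gene per length, scaled to the alignments on all genes of the library. The series asked what is lost when a distal super-enhancer (SE), a cluster of enhancers downstream of Sox2 on chromosome 3, is removed.

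The RNA was sequenced from 4 clones of F123, a hybrid ESC line that carries 1 chromosome set of CAST and 1 of 129. The wild type clone had both copies of the SE. CAST+/129- had lost the 129 copy, CAST-/129+ had lost the CAST copy, and CAST-/129- had lost both, in each case through CRISPR/Cas9 cutting on either side of the SE. Transfected cells recovered on fibroblast feeders and were moved to gelatin without feeders before harvest. The same study made chromatin immunoprecipitation libraries (ChIP-seq) for H3K4me3, a mark of active promoters, in F123 cells and for H3K27ac, a mark of active enhancers and promoters, in F123 cells and in J1, an ESC line of 129 background. Each condition was 1 library from 1 clone or line, so that clone and genotype cannot be told apart, no difference has a replicate check, and no p-value is given.

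Nodal is a secreted protein of the TGF-beta family. Together with its co-receptor Cripto, the product of Tdgf1, it binds Activin receptors, which phosphorylate Smad2 and Smad3. These Smads then switch on targets with partners such as Foxh1, and Lefty1 and Lefty2 are classic targets that feed back by blocking Nodal and Cripto outside the cell. In ESCs and the early epiblast the pathway is active through the cells' own Nodal, and in the embryo it sets up the primitive streak, mesendoderm and left-right asymmetry.

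The RNA libraries held between 7557984 distinct alignments in CAST-/129- and 33684661 in wild type, of which 5831179 and 24848413 lay on genes. Depth fell in the order wild type, CAST+/129-, CAST-/129+ and CAST-/129-, in which the libraries are listed below. Sox2 was at 175 FPKM in wild type. It was at 82.0 FPKM with the 129 copy lost, at 73.1 with the CAST copy lost and at 7.40 with both lost, in the order of the labels. The ESC marker Pou5f1 was at 132 to 207 FPKM in the 4 libraries. Markers of other cells were not equal among the clones. Summed over 16 genes of fibroblasts, the wild type level was 30.5 FPKM, and those of CAST+/129-, CAST-/129+ and CAST-/129- were 130.5, 122.7 and 640. Past 3-fold higher were 3, 2 and 13 of the 16 in the order of the mutants, beside 0.731%, 1.08% and 1.87% of the 13825 genes. Lum, at 0 counts in wild type, was at 8.60 FPKM in CAST-/129-. Over 8 genes of trophectoderm the sums were 21.1, 349.8, 588 and 556 FPKM in the same order. Krt8 and Krt18, keratins of simple epithelia in general, made up most of these sums, at 279 and 231 FPKM in CAST-/129-. Hand1, a factor of trophoblast giant cells, was at 0.524, 43.9, 43.8 and 19.8 FPKM and past 3-fold in all 3 mutants, as was Krt7, at 0.0171, 8.61, 13.4 and 9.54 FPKM. Elf5 was at 0.0274, 2.12, 4.27 and 0.117 FPKM, and Cdx2 and Gata3 reached 1.59 and 3.87 FPKM. Over 8 of primitive streak and endoderm they were 11.0, 24.6, 85.1 and 97.5 FPKM and over 6 of primitive endoderm 118, 23.2, 55.4 and 29.8 FPKM. The list of the streak and endoderm shares 6 of its 8 genes with the pathway targets described below. Of 3 measured neural genes Nes was at 1.80, 14.3, 10.5 and 19.9 FPKM, Neurod1 at 2.48, 0.794, 1.37 and 2.71 FPKM, and Pax6 at no more than 0.142 FPKM in any library. Over 8 ESC markers, Tdgf1 among them, the sums were 1595, 1465, 1380 and 1066 FPKM, of which Dppa5a alone made up 461 to 547 FPKM. Past 3-fold lower were 1 of the 8, Klf4, in CAST+/129- and in CAST-/129+, and 4 in CAST-/129-. Of the 13825 genes 0.694%, 0.752% and 1.16% were lower by that rule in the order of the mutants. In CAST-/129- Klf4 was at 8.29 FPKM (120 in wild type), Esrrb at 21.3 (89.9), Zfp42 at 52.3 (185) and Nanog at 38.9 (130.0). The part of these cells in the results below was not tested, and in such bulk RNA fewer cells of a type and less RNA per cell cannot be told apart.

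Nodal, the ligand that gives the pathway its name, lies on chromosome 10 at 60880720 to 60888086 of mm9 on the plus strand, with 3 exons. It was at 19.7 FPKM in wild type (95% Poisson interval 18.5 to 20.9, from 1025 alignments), 24.4 for CAST+/129- (22.6 to 26.4), 31.8 for CAST-/129+ (28.8 to 35.1) and 45.3 for CAST-/129- (41.7 to 49.3). Each mutant library was thus above wild type, and no interval overlapped that of its neighbour in this order. Relative to wild type the levels of the 3 mutants were 124% (exact 95% interval of the ratio of 2 counts 112 to 137), 162% (144 to 182) and 230% (207 to 256). All intervals given here cover counting error only, and since the mates of a read pair are separate lines that the files do not link, they may be too narrow. On the scale of the study's rule, log2 of FPKM plus 4 over the same in wild type with a 3-fold threshold, the differences of Nodal were 0.26, 0.60 and 1.06, none past 3-fold.

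The higher level of Nodal was seen in every exon of the CAST-/129- library, at 211% of wild type in exon 1, 224% in exon 2 and 239% in exon 3. In CAST-/129+ exon 3 was at 196% (169 to 228), while exons 1 and 2 were at 133% (89.8 to 194) and 120% (96.0 to 149), whose intervals include 100%. In CAST+/129- exons 1 to 3 were at 130% (95.8 to 174), 122% (103 to 144) and 125% (109 to 143). The step from CAST+/129- to CAST-/129+ was therefore seen in exon 3 and not in exons 1 and 2. None of the 50-base windows of the Nodal transcript occurs elsewhere in the genome.

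Nodal also carried some of the strongest H3K27ac near its start. A promoter here is the 2 kb on each side of the transcript start, and its density is given as a fold of the mean density of the genome in the same library, with no input library. The Nodal promoter was at 83.3-fold (72.1 to 95.8) in F123, rank 62 of 22367 promoters of protein-coding genes counted from the highest, and at 45.3-fold (41.5 to 49.3) in J1, rank 34. H3K4me3 was at 17.7-fold (15.3 to 20.5), rank 1746. The acetylation ran upstream of the start, with 122.9-fold in F123 and 68.9-fold in J1 in the 1 kb bin from 3 to 2 kb before it, while H3K4me3 there was at 2.99-fold. Of the bins within 20 kb and more than 2 kb from any annotated start, 7 were over 10 times the mean in F123 and 7 in J1. Of all 1 kb bins of the genome, those near starts included, 1.55% were over 10 times the mean for H3K27ac in F123 and 0.997% in J1.

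A window was searched for within 20 kb of the start, on both sides, and more than 2 kb from any annotated start, so the promoter itself was left out. The 300 bases with the most J1 alignments in that search, chosen after the values were seen, are shown. They lie at chr10:60878290-60878589 of mm9 on the plus strand, from position -2430 to -2131 relative to the start and in no annotated gene, with 104 alignments in J1 (119-fold) and 36 in F123 (202-fold).

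Nodal upstream window: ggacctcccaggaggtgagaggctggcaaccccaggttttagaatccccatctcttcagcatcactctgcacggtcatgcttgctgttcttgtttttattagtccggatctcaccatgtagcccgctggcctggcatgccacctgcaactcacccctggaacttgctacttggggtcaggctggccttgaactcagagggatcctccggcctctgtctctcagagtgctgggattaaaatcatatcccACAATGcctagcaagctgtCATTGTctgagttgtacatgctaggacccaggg

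Capitals mark the letters CATTGT, the core that Sox proteins bind, or their reverse complement. The window held 2 matches, at 268 to 273 on the plus strand and at 249 to 254 on the minus strand, counted from 1 at its 5′ end. CATTGT on either strand stands in 12.6% of 32851 RefSeq promoters of the same length. The other letters searched, AATCCACA and AATACACA of Foxh1, GTCTAGAC of the Smads, ATGCAAAT of octamer-binding proteins and TATAAA of the TATA box, had no match in it. These stand in 0.855%, 0.980%, 0.213%, 1.74% and 13.6% of promoters, in that order, with no letters shared in place between matches. The RefSeq promoter table (GRCm38.p6) matched 2 of the 7 genes, Nodal and Tdgf1, and not Gdf3, Lefty1, Lefty2, Smad7 and Skil.

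Gdf3, a ligand of the same family that can act through Cripto, did not follow Nodal. It lies on chromosome 6 at 122555421 to 122560105 on the minus strand and has 2 exons. It was at 27.8 FPKM in wild type (26.4 to 29.3), 37.1 for CAST+/129- (34.8 to 39.4), 19.8 for CAST-/129+ (17.4 to 22.4) and 24.2 for CAST-/129- (21.5 to 27.1). The clones that had lost 1 copy of the SE therefore lay on opposite sides of wild type, at 133% (122.6 to 144) and 71.1% (62.0 to 81.3), and CAST-/129+ was the lowest of the 4. In CAST-/129- the level was 87.0% of wild type (76.6 to 98.5), but that direction turned when reads were counted before identical ones were collapsed, with a log2 ratio of 0.10 in place of -0.17, and when all libraries were thinned to 1 depth, with 0.01. In CAST-/129+ the shorter exon 1 was at 42.8% (29.1 to 61.0) and exon 2 at 79.2% (68.3 to 91.6), so the exons differed by more than their counting error. The Gdf3 promoter was at 65.2-fold for H3K27ac in F123 (rank 134), 44.6-fold in J1 (rank 36) and 10.9-fold for H3K4me3 (rank 5285). Its acetylation lay over and behind the start, with 128-fold, 108-fold and 106-fold in the first 3 bins after it in F123.

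Tdgf1, which encodes the co-receptor Cripto, was the most abundant of the 7 transcripts per length in every library. It lies on chromosome 9 at 110842114 to 110848662 on the minus strand, with 6 exons. Its level was 209 FPKM in wild type (205 to 213), 177 for CAST+/129- (172 to 182), 177 for CAST-/129+ (169 to 185) and 154 for CAST-/129- (147 to 161). All mutant libraries were below wild type, at 84.7% (81.7 to 87.8), 84.8% (80.8 to 88.9) and 73.7% (69.9 to 77.5), and the 2 clones with 1 copy left could not be told apart, with a ratio of 99.9% (94.8 to 105). None was near the 3-fold threshold, with log2 ratios of -0.23, -0.23 and -0.43.

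The lower level of Tdgf1 was not shared by all exons. The last exon, which holds 7076 of the wild type alignments, was at 78.3% in CAST+/129-, 82.4% in CAST-/129+ and 65.8% in CAST-/129-, and exon 1 was at 91.9% (84.4 to 100.1, which includes 100%), 75.5% and 79.7%. Exons 3 and 4 had intervals that include 100% in all 3 mutants. Exon 5 was at 108% (90.6 to 128), 115% (91.6 to 143) and 125% (100.1 to 155), and exon 2 was at 146% (107 to 198), 150% (101 to 219) and 160% (108 to 233). For the gene as a whole, the log2 ratios were below 0 in 8 of the 9 alternatives of counting and scaling. Keeping bases shared with other genes, which is among the 8, left the ratios unchanged. They were -0.44, -0.55 and -0.68 with reads before collapsing and -0.39, -0.41 and -0.62 after thinning to 1 depth. When each 5′ position was counted once they turned to 0.47, 0.73 and 0.63, a count that has a ceiling in a gene as covered as this one and from which no direction is read. The transcript also has a near copy on chromosome 16, at 3730371 to 3732656, where GENCODE M1 has no gene: 27.5% of its 50-base windows and 10.7% of its 100-base windows occur there. Alignments of either strand at the copy numbered 2864 in wild type and 1048, 452 and 386 in the mutants, or 73.0%, 64.7% and 57.4% of wild type per alignment on genes. The copy was therefore below wild type in all 3 mutants, as the gene was. How reads that match both places were assigned is not given in the sources used here.

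The Tdgf1 promoter was among the most acetylated of the genome. It was at 105-fold (92.6 to 119) in F123, rank 28, and at 70.6-fold (65.9 to 75.6) in J1, rank 2, while H3K4me3 was at 10.6-fold, rank 5492. The bin just before the start reached 217-fold in F123 and 115-fold in J1, and acetylation continued upstream, with 80.8-fold and 77.2-fold in the bin from 15 to 14 kb before the start. It had 14 distal bins over 10 times the mean in F123 and 15 in J1, beside 1.55% and 0.997% of all 1 kb bins of the genome. These counts were the most of the 7 genes in both lines, but the number of bins away from annotated starts differed among the genes. The bases before the RefSeq start of Tdgf1 are shown because the gene is among those matched in the RefSeq promoter table. The H3K27ac density of these bases themselves was not counted. They are at chr9:110946159-110946408 of GRCm38.p6 on the minus strand, in the coordinates of that build and not of mm9.

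Tdgf1 promoter: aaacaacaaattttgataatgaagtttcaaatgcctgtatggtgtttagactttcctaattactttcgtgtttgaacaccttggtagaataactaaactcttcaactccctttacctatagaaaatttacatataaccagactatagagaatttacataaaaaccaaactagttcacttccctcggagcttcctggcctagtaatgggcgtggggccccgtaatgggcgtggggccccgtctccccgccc

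None of the motifs searched had a match in these 250 bases, nor in the 250 bases before the RefSeq start of Nodal, which says only that these letters are not there.

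Lefty1 and Lefty2 encode secreted inhibitors that bind Nodal and its co-receptor. They lie on the plus strand of chromosome 1, Lefty2 at 182823239 to 182829234 and Lefty1 at 182865153 to 182868531, with 41.9 kb between their starts. Each has 4 exons. Both were higher in every mutant library, and Lefty1 was the only one of the 7 genes past 3-fold.

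Lefty1 was at 6.501 FPKM in wild type (5.77 to 7.30, from 284 alignments), 23.9 for CAST+/129- (21.9 to 26.0), 43.9 for CAST-/129+ (40.05 to 48.1) and 103 for CAST-/129- (96.8 to 109). The 4 intervals did not overlap. Wild type was at the 35.7th percentile of the 13825 genes, and relative to it the level was 367% (317 to 426), 676% (582 to 786) and 1583% (1387 to 1811). On the log2 scale of FPKM plus 4 the differences were 1.41, 2.19 and 3.35, so that CAST-/129+ and CAST-/129- were past 3-fold and CAST+/129- was not, since the added 4 weighs on a gene this low in wild type. With 1 added in its place CAST+/129- was past 3-fold too, at 1.73. Under all 9 alternatives of counting and scaling Lefty1 was past 3-fold in CAST-/129+ and in CAST-/129-. Among the 9, keeping bases shared with other genes left its ratios unchanged. Lefty1 is also in the list of increased genes that the study drew from these same libraries, so that list is not independent evidence.

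Lefty2 started higher and changed less. It was at 29.1 FPKM in wild type (27.8 to 30.4), 45.4 for CAST+/129- (43.1 to 47.8), 50.6 for CAST-/129+ (47.1 to 54.2) and 87.7 for CAST-/129- (83.1 to 92.6). The clones with 1 copy left had overlapping intervals, although their ratio, 89.8% (82.4 to 98.0), left out 100%. Relative to wild type the level was 156% (146 to 167), 174% (160 to 189) and 302% (281 to 324), with log2 ratios of 0.58, 0.72 and 1.47. On that scale of FPKM plus 4 the CAST-/129- library fell just short of 3-fold, and passed it with reads before collapsing (1.79) and after thinning to 1 depth (1.76).

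The balance of the pair shifted. Per length, Lefty1 stood to Lefty2 as 0.224 to 1 in wild type (exact interval 0.197 to 0.254), 0.526 for CAST+/129- (0.475 to 0.581), 0.869 for CAST-/129+ (0.774 to 0.975) and 1.17 for CAST-/129- (1.08 to 1.27). Lefty1 was thus the scarcer of the pair in 3 libraries and the more abundant in CAST-/129-. How reads that match both genes were assigned is not given in the sources used here, and the ratio rests in part on it. Of the 50-base windows of Lefty1 17.7% and of those of Lefty2 14.3% occur again in the genome, and 4.602% and 3.12% of the 100-base windows. The transcripts resemble each other, with 281 of the 1571 windows of 50 bases of Lefty1 and 281 of the 2424 of Lefty2 found in the other. Further repeats of Lefty2 lie elsewhere in the genome. Every exon of both genes was above wild type in every mutant library with an interval that left out 100%. For Lefty1 the exons lay between 276% and 532% in CAST+/129-, 429% and 820% in CAST-/129+ and 1120% and 2350% in CAST-/129-.

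**Figure D1:**
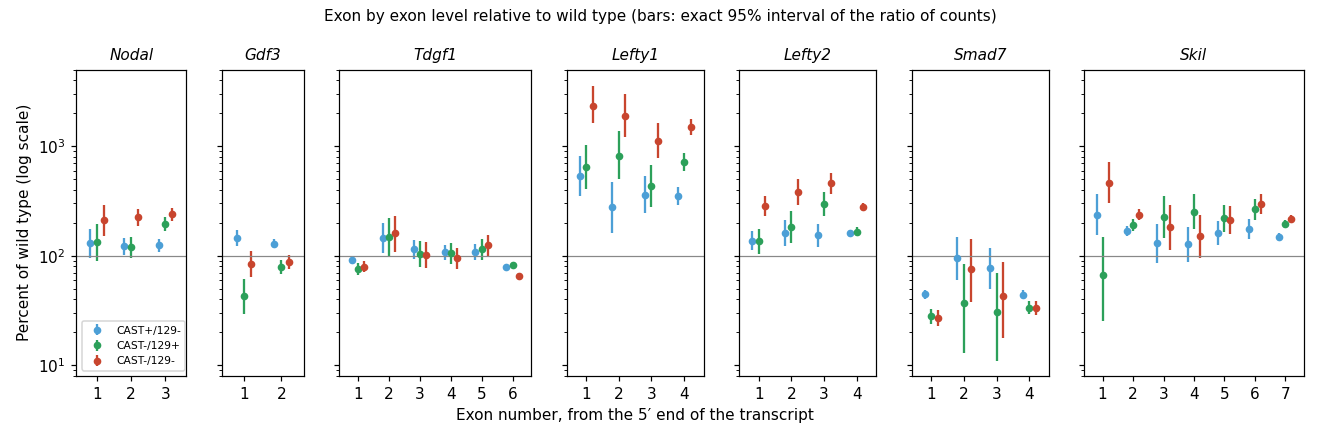
Level of each exon as a percent of wild type (log axis) for the 7 genes in the CAST+/129-, CAST-/129+ and CAST-/129- libraries, with points for the ratio and bars for the exact 95% interval of the ratio of counts. All exons of Lefty1 and Lefty2 lie above the line at 100%, exons 1 and 4 of Smad7 lie below it, and those of Tdgf1 lie on both sides.

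In unedited cells the Lefty promoters carried less H3K4me3 than those of the other 5 genes. The Lefty1 promoter was at 2.52-fold for H3K4me3 (1.66 to 3.67), 5.89-fold for H3K27ac in F123 (3.22 to 9.89) and 11.9-fold in J1 (10.02 to 14.1), and that of Lefty2 at 3.83-fold, 3.37-fold and 6.43-fold. For H3K4me3 these were the lowest of the 7, at the 41.6th and 48.5th percentile of promoters, below the median fold of 4.11 in the case of both. Over 5 times the mean were 5 of the 7 promoters for H3K4me3, 6 for H3K27ac in F123 and 7 in J1, beside 46.4%, 28.7% and 22.9% of all promoters. When the annotated start of each gene with the most H3K4me3 was taken, Lefty1 was at 2.80-fold, 2.10-fold and 4.63-fold and Lefty2 at 4.86-fold for H3K4me3, above the median, and the counts were 5, 5 and 6. With 5 kb on each side of the start the H3K27ac of Lefty1 came to 3.70-fold (F123) and 6.21-fold (J1), and that of Lefty2 to 19.2-fold and 21.8-fold.

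Acetylation of Lefty2 stood away from its promoter. The bins from 5 to 4 kb and from 4 to 3 kb before the start were at 75.8-fold and 82.5-fold in F123 and at 58.0-fold and 89.8-fold in J1. For Lefty1 the distal bins over 10 times the mean were from 11 to 9 kb before the start, at 19.2-fold and 16.1-fold in J1 and 5.05-fold and 10.1-fold in F123, where the last rests on 6 alignments. No window was searched for near Lefty1. The window with the most J1 alignments near Lefty2, found by the same search as for Nodal and also chosen after the values were seen, is shown. It lies at chr1:182819519-182819818 of mm9 on the plus strand, from position -3720 to -3421 relative to the start and in no annotated gene, with 106 alignments in J1 (121-fold) and 13 in F123 (73.0-fold).

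Lefty2 upstream window: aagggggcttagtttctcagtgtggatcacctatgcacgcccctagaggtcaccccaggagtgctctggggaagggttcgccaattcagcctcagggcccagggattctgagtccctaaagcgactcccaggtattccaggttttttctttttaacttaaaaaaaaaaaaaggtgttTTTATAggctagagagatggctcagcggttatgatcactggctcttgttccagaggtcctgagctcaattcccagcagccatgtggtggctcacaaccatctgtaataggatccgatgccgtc

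Capitals mark its only match to the motifs searched, TATAAA on the minus strand at 178 to 183, which stands in 13.6% of promoters of that length.

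**Figure D2:**
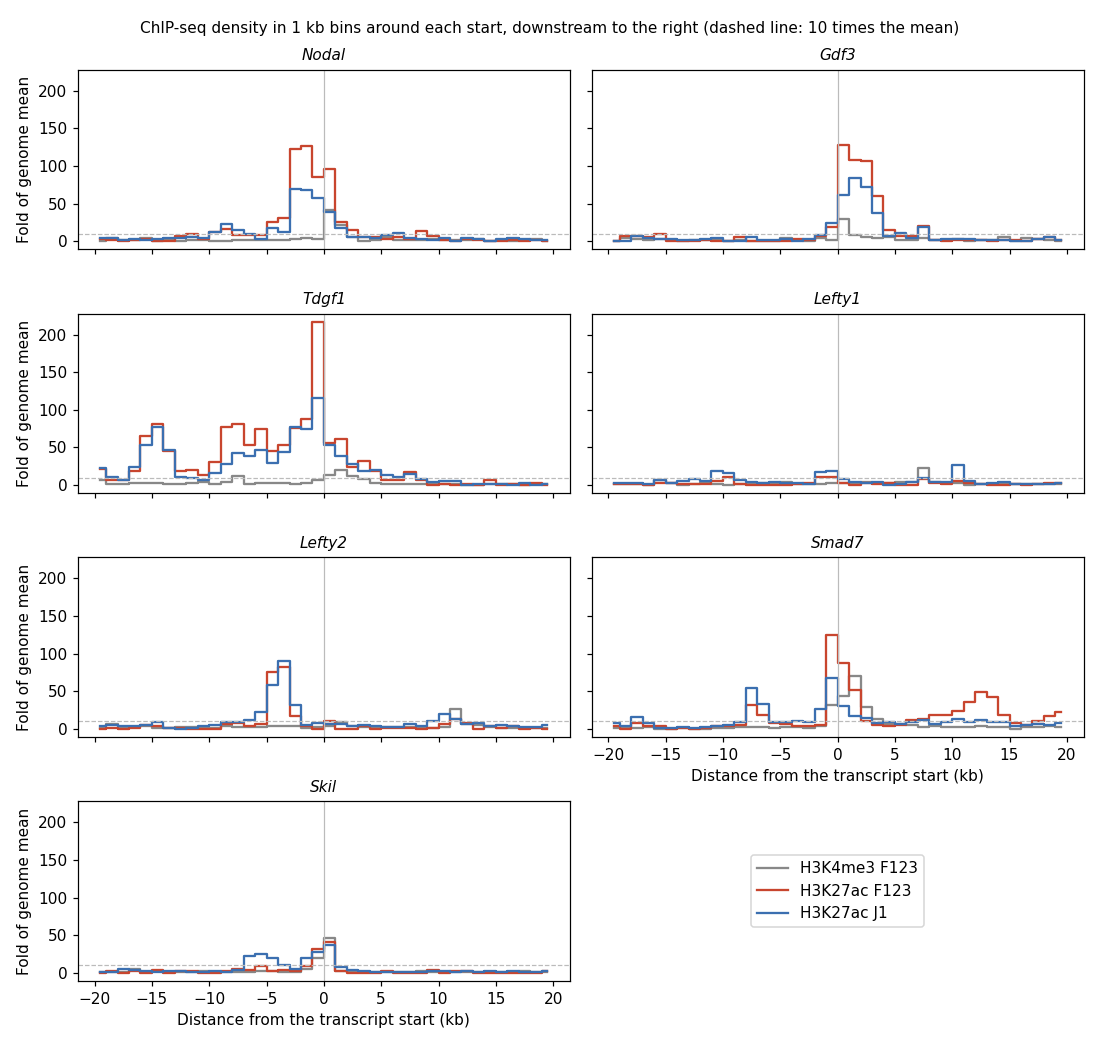
ChIP-seq density as a fold of the genome mean in 1 kb bins within 20 kb of the start of each gene, with distance along the axis in kb and 1 line for each of the 3 libraries. H3K27ac is high over the promoters of Nodal, Gdf3, Tdgf1 and Smad7, also upstream of the promoter of Nodal, and 5 to 3 kb before Lefty2. H3K4me3 stays low over Lefty1 and Lefty2.

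Smad7, an inhibitory Smad that is induced by the pathway and turns receptors off, was lower in every mutant library. It lies on chromosome 18 at 75527183 to 75555589 on the plus strand, with 4 exons. It was at 45.9 FPKM in wild type (44.7 to 47.2), 20.9 for CAST+/129- (19.7 to 22.1), 14.27 for CAST-/129+ (12.9 to 15.8) and 14.34 for CAST-/129- (12.9 to 15.9). CAST-/129- did not lie below CAST-/129+, with a ratio of 100.4% (87.0 to 116), whereas CAST+/129- was above CAST-/129+ at 146% (130 to 165). Relative to wild type the level was 45.5% (42.7 to 48.5), 31.1% (28.0 to 34.5) and 31.2% (28.1 to 34.7), with log2 ratios of -1.003, -1.45 and -1.44. These were short of 3-fold with 4 added and past it in CAST-/129+ and CAST-/129- with 1 added, at -1.62 and -1.61. Both long exons carried the difference, exon 1 at 44.6%, 28.1% and 27.1% and exon 4 at 44.2%, 33.5% and 33.3%. The short exons 2 and 3 held only 67 and 80 alignments in wild type. Exon 2 was at 95.3% (60.5 to 147), 36.7% (13.0 to 84.2) and 76.3% (37.6 to 142). Exon 3 was at 77.3% (49.3 to 118), 30.8% (11.0 to 69.9) and 42.6% (17.8 to 88.1). In CAST+/129- both intervals included 100% and lay above those of exon 1 (40.4 to 49.1) and exon 4 (40.4 to 48.3). The interval of exon 2 in CAST-/129- also included 100%. The Smad7 promoter was at 37.4-fold for H3K4me3, rank 39 and the highest of the 7, at 67.3-fold for H3K27ac in F123 (rank 122) and at 35.6-fold in J1 (rank 87).

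Skil encodes SnoN, a co-repressor that binds Smads in the nucleus and is itself a target of the pathway. It lies on chromosome 3, the chromosome of Sox2, at 30993980 to 31021499 on the plus strand, with 7 exons. It was at 11.6 FPKM in wild type (11.2 to 12.04), 18.1 for CAST+/129- (17.4 to 18.9), 23.3 for CAST-/129+ (22.0 to 24.5) and 26.5 for CAST-/129- (25.2 to 27.9). No interval overlapped another, and the levels stood in the same order as those of Nodal and the Lefty genes. Relative to wild type they were 156% (148 to 165), 200.4% (188 to 214) and 228% (214 to 243), with log2 ratios of 0.50, 0.80 and 0.97, none past 3-fold. Exon 7, with 1447 of the wild type alignments, was at 148%, 195% and 217%, and exon 2 at 167%, 191% and 238%. Exon 1, with 43 alignments in wild type, was at 237%, 66.8% (25.3 to 150) and 466%. The interval also included 100% for exon 3 in CAST+/129- and for exon 4 in CAST+/129- and CAST-/129-. The Skil promoter was at 18.6-fold for H3K4me3, 20.6-fold for H3K27ac in F123 and 23.2-fold in J1. In J1 4 bins from 7 to 3 kb before the start were over 10 times the mean, at 10.6-fold to 24.3-fold, and in F123 none was, with values of 1.68-fold to 8.42-fold. The F123 library held 0.594 alignments per kb on average. Its values here rest on few alignments, and no difference between the lines is read from them.

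**Figure D3:**
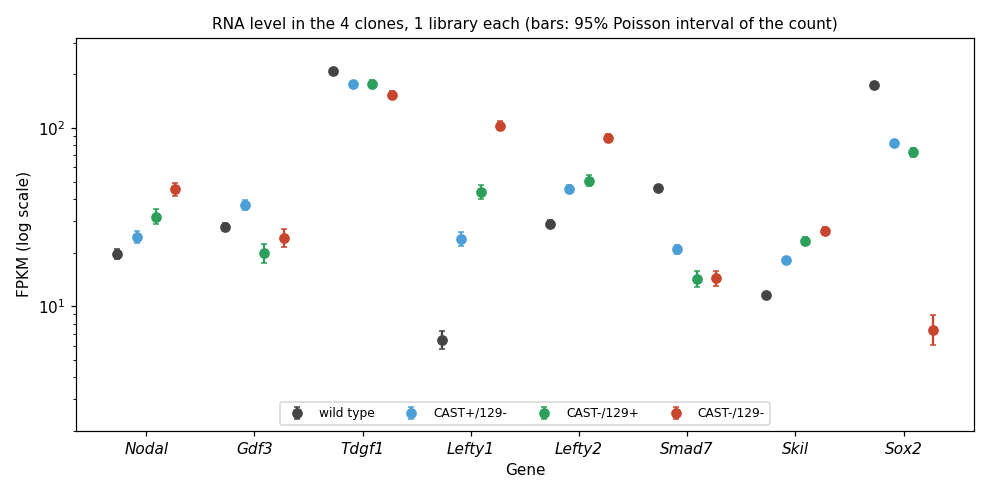
FPKM (log axis) of the 7 genes and of Sox2 in the wild type, CAST+/129-, CAST-/129+ and CAST-/129- libraries, with points for the value and bars for the exact 95% Poisson interval of its count. Nodal, Lefty1, Lefty2 and Skil are higher from left to right, Lefty1 from 6.501 to 103, whereas Smad7 and Sox2 are lower, from 45.9 to 14.3 and from 175 to 7.40.

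Set side by side, 4 of the 7 genes, Nodal, Lefty1, Lefty2 and Skil, were above wild type in all 3 mutants, as were 28.7% of the 13825 genes, and their levels stood in the order wild type, CAST+/129-, CAST-/129+ and CAST-/129-, as did those of 6.40% of genes. Tdgf1, unless each position was counted once, and Smad7 were below wild type in all 3, as were 38.8% of genes. The 3 comparisons share the wild type library, and the order is also that of depth. It did not hold in every exon. In CAST+/129- and CAST-/129+ exon 2 of Nodal was at 122% and 120% of wild type, and exon 1 of Lefty2 at 137% and 136%. The same 4 genes kept the order under all 7 alternatives of counting or library size. Keeping bases shared with other genes, which is among the 7, left the values of these genes as they were and so could not alter the order. After thinning to 1 depth the share of all genes in this order was 8.71%, and with reads before collapsing it was 9.97%. The median log2 ratio of the 7 genes was 0.37 in CAST+/129-, 0.60 in CAST-/129+ and 0.97 in CAST-/129-, beside -0.03, -0.07 and -0.08 for all 13825 genes. On the chromosomes of the 7 genes the median of all genes lay between -0.10 and -0.02.

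Past 3-fold in the higher direction were 0 of the 7 genes in CAST+/129-, where 0.731% of genes were called, 1 for CAST-/129+ (1.08% of genes) and 1 for CAST-/129- (1.87% of genes). In the lower direction 0 of the 7 were called in each, beside 0.694%, 0.752% and 1.16% of genes. The single call in the last 2 libraries was Lefty1.

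The genes whose 3 log2 ratios lay nearest to those of Lefty1, by Euclidean distance among 9529 genes with a mean of at least 5 FPKM, were Pim2, a survival kinase, at a distance of 0.31, Gsn, the actin-severing protein gelsolin, at 0.35, and Col1a2, a chain of type I collagen, at 0.49. Col1a2, which is one of the fibroblast markers, was at 1.14, 11.9, 13.6 and 53.4 FPKM in the order of the libraries. Nearest to Lefty2 were Ppp1r1a, Plat and Ak1, at 0.18, 0.19 and 0.20, and nearest to Nodal were Bace1, Farp1 and Prickle1, at 0.05, 0.06 and 0.07. These distances are over 3 values that share 1 wild type library and describe these libraries only.

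Of 39 further genes of Nodal and Activin signalling, from ligands to targets, 38 were measured and Gdf1 was not. This list, its targets included, was chosen with earlier results of these data known, so no support is drawn from its counts. In CAST+/129- 1 was past 3-fold higher and 2 lower, in CAST-/129+ 6 higher and 2 lower, and in CAST-/129- 8 higher and 1 lower, beside the shares of all genes given above, which were 0.731% and 0.694%, 1.08% and 0.752%, and 1.87% and 1.16%. The calls were the ligands Inhba and Inhbb, the convertase Pcsk6, the inhibitors Cer1, Fst and Dact2, and 6 of the 9 targets, while the 6 receptors, 4 transducers and 2 nuclear partners had none in any library. The log2 ratios of the 38 lay on both sides of 0, from -2.58 to 2.53, from -2.94 to 2.905 and from -1.80 to 3.35 in the order of the mutants, with medians of -0.05, 0.08 and 0.06.

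Among the ligands, the Activin subunits lay on opposite sides of wild type. Inhba, the subunit of Activin A, was at 0.203 FPKM in wild type (10 alignments), and 20.3, 5.42 and 14.0 FPKM in the mutants, with log2 ratios of 2.53, 1.16 and 2.10. Inhbb, the subunit of Activin B, was at 31.3, 1.89, 0.582 and 12.7 FPKM, with log2 ratios of -2.58, -2.94 and -1.08, so that it was lowest in the clones with 1 copy of the SE. Pcsk6, a convertase that cleaves the Nodal precursor, was at 33.6, 16.4, 11.1 and 6.76 FPKM, past 3-fold lower in CAST-/129- only, at -1.80, beside -0.88 and -1.32. The receptor Acvr1b fell short of the threshold in all 3, with 21.9 FPKM in wild type and 5.56, 7.10 and 6.49 in the mutants, at log2 ratios of -1.44, -1.22 and -1.31. The receptor Tgfbr2, which binds TGF-beta itself, was at 1.64, 0.982, 0.918 and 10.1 FPKM, and so on the other side of wild type in CAST-/129-, at a log2 ratio of 1.32. Acvr1c, a receptor that Nodal can use, had no more than 2 alignments in any library.

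Of the 4 secreted inhibitors measured, Cer1, which binds Nodal outside the cell, was at 0.0463 FPKM in wild type (2 alignments), 0.138 for CAST+/129- (3 alignments), 14.3 in CAST-/129+ and 37.4 in CAST-/129-, with log2 ratios of 0.03, 2.18 and 3.35. Fst, which traps Activin, was at 2.88, 4.48, 9.89 and 17.6 FPKM and past 3-fold in CAST-/129-, at 1.65, beside 0.30 and 1.01. Both stood in the same order of libraries as Lefty1. Dact2, which promotes the breakdown of Nodal receptors, was at 26.3, 4.40, 5.53 and 7.21 FPKM, past 3-fold lower in CAST+/129- (-1.85) and CAST-/129+ (-1.67) and at -1.43 in CAST-/129-.

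None of the 9 targets was past 3-fold in CAST+/129-, and 5 were in each of the other libraries, all higher. The shares of all genes called higher were 0.731%, 1.08% and 1.87% in the order of the mutants. Of the 6 targets that passed, all but Eomes were under 1 FPKM in wild type. T, a regulator of mesoderm, was at 0.418, 3.16, 10.3 and 36.3 FPKM and past 3-fold in CAST-/129+ (1.69) and CAST-/129- (3.19), beside 0.70 in CAST+/129-. Lhx1, a factor of the organizer region, was at 0.0488, 0.117, 14.9 and 10.3 FPKM, at 2.23 and 1.82 in the same libraries and 0.02 in CAST+/129-. Fgf5, a marker of the primed epiblast, was at 0.129, 4.01, 26.9 and 24.5 FPKM, at 2.91 and 2.79 and at 0.96 in CAST+/129-, and Fgf8, a signal of the streak, was at 0.119, 1.01, 19.6 and 21.5 FPKM, at 2.52 and 2.63 and at 0.28. Eomes passed only in CAST-/129+ (2.03), at 1.5004 in CAST+/129- and 1.11 in CAST-/129-, and is on the trophectoderm list too. T, Eomes, Mixl1, Gsc, Foxa2 and Lhx1 are also 6 of the 8 markers of the streak and endoderm, so the sums of that list and these targets are not separate measurements. Mixl1 passed only in CAST-/129- (2.01), at -0.01 in CAST+/129- and 1.40 in CAST-/129+. The 9 do not hold every gene that the pathway induces. Lefty1, Lefty2 and Skil were above wild type in all 3 mutants, whereas Smad7 was below it in all 3, at -1.003, -1.45 and -1.44. The feedback inhibitor Pmepa1 was at -0.60, -0.86 and 0.10 in the order of the mutants. Whether any of these ratios differs between mutants was not tested. Cer1, Inhba, Fgf5, Fgf8 and T are on the study's list of increased genes and Pcsk6 is on its list of decreased genes, both drawn from these libraries, so the lists are not independent evidence.

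**Figure D4:**
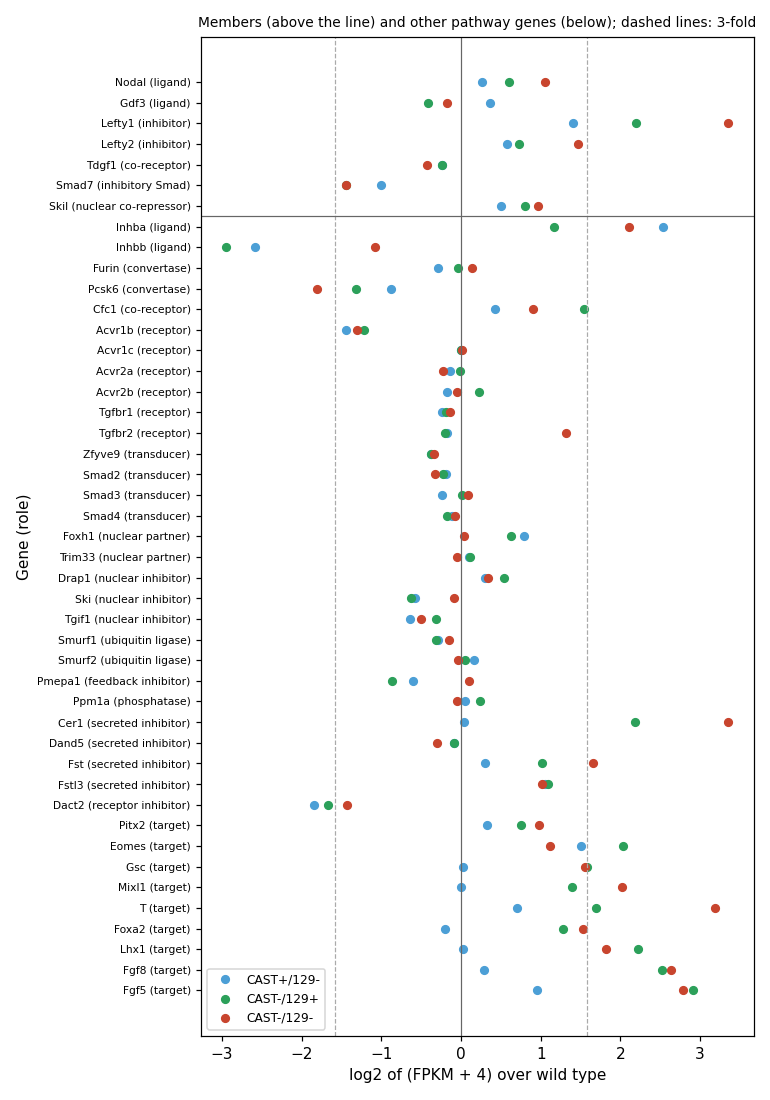
Log2 ratio of FPKM plus 4 to wild type in the 3 mutant libraries for the 7 genes (above the line) and the 38 other measured genes of the pathway (below it, with their role), with dashed lines at 3-fold. Receptors, transducers and nuclear partners lie between the dashed lines, whereas Lefty1, Cer1, T, Fgf5 and Fgf8 lie to the right of them in CAST-/129+ and CAST-/129-.

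Nuclear partners and co-repressors of the Smads were among the genes of the list most expressed in wild type. The Smad partner Foxh1 was at 35.3, 63.7, 56.4 and 36.2 FPKM, and thus 181% and 160% of wild type in the clones with 1 copy of the SE and 103% (89.8 to 117) in CAST-/129-. The co-repressor Ski, a relative of Skil, was at 37.6, 23.9, 22.9 and 35.0 FPKM, and the co-repressor Tgif1 at 34.4, 20.6, 26.95 and 23.2 FPKM. Drap1, which inhibits Foxh1, was at 33.9, 42.8, 50.9 and 43.9 FPKM. None of these 4 was past 3-fold.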

How the data were processed

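The 7 genes and the lists beside them were chosen with earlier results of these data known. The authors mapped the RNA-seq reads, 2 x 100 bases from strand-specific libraries, to mm9 with Novoalign and the ChIP-seq reads, 36 bases long, with Bowtie (versions not given in the sources used here). They deposited lists of alignments in which identical ones are collapsed to 1 line with a whole-number count of the reads behind it.

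Distinct alignments were the unit here. An RNA alignment went to a gene of GENCODE M1 (NCBIM37) when its midpoint fell in an exonic base of that gene and of no other gene on the transcript strand, and FPKM was scaled to the total assigned in this way. Wild type held 2.58 reads per distinct alignment and CAST-/129- 1.84, so that collapsing takes away a larger share of the reads in wild type. Whether that share depends on the level of a gene was not tested. Ratios are log2 of FPKM plus 4, with the 3-fold rule of the study's methods, and the share of genes called is over those with a mean of at least 1 FPKM. With 1 library per condition no test was made. ChIP-seq 5′ ends were counted, with no input. The depth was 1576574 nuclear alignments for H3K27ac in F123, 7741713 in J1 and 7105833 for H3K4me3. Alleles were not told apart. Intervals are exact, at 95%, for a count (Poisson) or a ratio of 2 counts (binomial).

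The genes named are the 7, those of the pathway list past 3-fold in any mutant, the 6 of them highest in wild type, the 3 nearest genes for Lefty1, Lefty2 and Nodal, Sox2, and markers beside a result. Those for Skil, which the rule also takes, are not reported here. Acvr1b, Acvr1c, Tgfbr2 and Pmepa1 were singled out after their values were seen. The FPKM, interval and calling rules were tested on simulated data, drawn as independent counts per gene. How alignments are assigned to genes was not part of that test. The software was scipy 1.17.1, pandas 2.3.3, numpy 2.4.6, matplotlib 3.10.9, pysam 0.24.0 and numba 0.67.0 under Python 3.11.15.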

Additional observations from a re-analysis of the deposited data

Results flagged for a closer look

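Gdf3 was on opposite sides of wild type in the clones that had lost 1 copy of the SE, with 133% of the wild type level for CAST+/129- and 71.1% for CAST-/129+. The direct ratio of the 2 libraries was 187% (163 to 216, counting error only). The difference between genotypes was not tested, since each is 1 library.

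Alignments on the strand opposite to Skil, which enter no value above except the alternative that counts both strands, were found in mutants and not in wild type. They came to 0.0994 FPKM in CAST+/129- (12 alignments) and 0.106 FPKM in CAST-/129- (6 alignments), but to 0.0341 FPKM in CAST-/129+ (2 alignments, 0.00412 to 0.123), while wild type had 0 alignments, for which the exact 95% interval ends at 0.0153 FPKM. They made up 0.545%, 0.399% and 0.146% of the alignments on both strands of the gene in CAST+/129-, CAST-/129- and CAST-/129+. Their origin was not tested.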

How the results depend on the processing

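No paired analysis was possible because each condition is 1 library, and for the same reason no library could be left out. The genes past 3-fold among the 7 numbered 0 in CAST+/129-, 1 in CAST-/129+ and 1 in CAST-/129-. With a pseudo-value of 1 they numbered 1, 2 and 2, and with a 2-fold threshold 2, 2 and 4. With a 5-fold threshold there were 0 in CAST-/129+. In CAST-/129- there were 2 with reads before collapsing and 2 after thinning, Lefty2 being the one added. In the pathway list the calls, 3, 8 and 9, became 7, 15 and 17 with a pseudo-value of 1, 1, 2 and 4 with 10, and 6, 17 and 17 at 2-fold, and at 5-fold there were 3 in CAST-/129+ and 4 in CAST-/129-. The distal bins over 10 times the mean, 0 for H3K4me3, 37 for H3K27ac in F123 and 40 in J1, became 7, 66 and 79 at 5 times, and for H3K27ac 21 and 18 at 20 times. These changes follow from the thresholds and pseudo-values themselves, and the cause of the others was not tested. Of the counts under alternatives 62 stayed within 1.5 times and 25 did not.

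Over all genes in CAST-/129-, 258 higher and 161 lower calls became 670 and 535 with a pseudo-value of 1 and 120 and 50 with 10. In CAST+/129- 101 and 96 became 284 and 332, or 50 and 24, and in CAST-/129+ 149 and 104 became 414 and 377, or 75 and 32. Scaled to all alignments of each library, the higher and lower calls were 86 and 62 in CAST+/129-, 111 and 82 in CAST-/129+ and 209 and 106 in CAST-/129-. With no filter on low values the share called higher was 0.321%, 0.473% and 0.819% in the 3 mutants and the share called lower 0.305%, 0.330% and 0.511%. Reads before collapsing moved the median of all genes in CAST-/129- from -0.08 to 0.03. The signs of Tdgf1 in all 3 mutants and of Gdf3 in CAST-/129- changed as given above, and those of the other 17 ratios held in all 9 alternatives. Among the 9, keeping bases shared with other genes changed no ratio of the 7 genes. With 5 kb on each side of the start in place of 2, H3K4me3 over the promoters of Nodal, Gdf3, Tdgf1, Smad7 and Skil was at 8.59, 6.58, 7.02, 20.4 and 8.11 times the mean. H3K27ac of these 5 was then at 53.7, 44.8, 67.0, 30.1 and 8.92 in F123 and at 29.5, 30.1, 50.1, 20.2 and 13.5 in J1. With 1 kb on each side H3K27ac in F123 was at 106 for Smad7 and 36.2 for Skil, and H3K4me3 of Skil was at 33.2. Depth limits the exons under 100 alignments and the H3K27ac library of F123, in which a bin at 10 times the mean holds 6 alignments.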
